A study of Homo sapiens with 4 samples.

Results

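The genes described here encode the enzymes that cut, trim and chemically modify transfer RNA (tRNA), together with a few of their cofactors. They were chosen by name, as every listed gene whose symbol joins TRMT, PUS, NSUN, QTRT, ADAT, TYW, CTU, RPP, POP, DUS or ELP to a number, plus 7 genes with other names, among them TRMU, TRNT1, TRIT1, ELAC2, GTPBP3 and MTO1. This gave 65 genes of the 14431 listed. All 65 passed the filter on low values, which left 14199 genes to test, and the least abundant of them in the control group, TRMT10A, still had a mean of 1.56 CPM there. The names do not all mean an enzyme of tRNA. NSUN4 and NSUN5 act on ribosomal RNA, NSUN5P1 and NSUN5P2 are pseudogenes of NSUN5, and most of the POP and RPP proteins also serve RNase MRP, which cuts ribosomal RNA precursors.

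RNA was sequenced from HGC27, an established human gastric cancer cell line, in 2 control libraries and 2 libraries of cells in which AARS1 was knocked down by siRNA (siAARS1). Both groups were grown in glucose-free DMEM with serum and antibiotics and received 25 mM lactate, so that lactate and the lack of glucose were shared by all 4 libraries. The labels and the text of the study give different times under lactate. The labels call the duplicates replicates and do not say that they were separate cultures, so the p-values may measure technical spread only. AARS1 encodes the cytosolic alanyl-tRNA synthetase, which joins alanine to its tRNA, and the comparison addressed here is what its knockdown did to transcripts of the genes that act on tRNA before and beside it.

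A tRNA is transcribed with extra sequence at both ends. RNase P removes the leader at the 5′ end, an endonuclease removes the trailer at the 3′ end, and a nucleotidyltransferase adds the CCA tail to which the amino acid is later attached. Many bases are then modified. Methyl groups, pseudouridine and dihydrouridine in the body of the molecule affect its fold. Larger modifications at and beside the anticodon, such as inosine, queuosine, wybutosine and the side chains of wobble uridine, tune decoding. All of these steps are housekeeping functions, and the genes for them are expressed in most tissues.

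Listed genes collected between 30653210 and 33522573 reads per library, so that 1 read was worth 0.0293 to 0.0324 CPM, the unit of reads scaled to the size of the library. AARS1, listed as AARS, fell from 428 and 417 CPM in the controls to 292 and 298 CPM with siAARS1, 69.7% of the control mean, with a log2 fold change of -0.52 (SE 0.0357). The knockdown thus left most of the transcript in place. Of the markers of epithelium, EPCAM, KRT18, KRT19 and ESRP1 were not among the listed genes, and CDH1, CLDN4 and KRT8 summed to 30.8 and 30.6 CPM in the controls and at most 9.36 CPM with siAARS1, each of them called lower. Of the mesenchymal markers, the transcription factor ZEB1 rose by 2.80 on the log2 scale, from a mean of 6.50 to 51.2 CPM. VIM (-0.13), FN1 (-0.47) and SPARC (-0.63) were called lower, and CDH2 was not listed. None of 9 gastric differentiation markers was listed. All 5 fibroblast markers were, at 6458 and 6661 CPM together in the controls and 4709 to 4801 CPM with siAARS1, and COL1A1 and COL3A1, which fell, made up most of that, whereas LUM rose by 0.84 and DCN by 0.11. The part of these markers in the results below was not tested, and in bulk RNA fewer cells of a kind cannot be told apart from less RNA per cell. The change between groups was wide: limma called 10032 of the 14199 genes tested at an adjusted p under 0.05, which is 70.7% of them, with 32.6% called higher and 38% called lower in siAARS1.

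Against that background, transcripts of the tRNA genes were more often higher than lower after AARS1 knockdown. Of the 65 genes, 33 rose, 8 fell and 24 were not called, and the median log2 fold change was 0.16, beside -0.05 over all genes tested. Under quantile normalization, which moved the median of all genes to -0.15, 27 were called higher and 21 lower. A rise of at least 1 on the log2 scale was called for 8 of them (12.3%), a share close to the 10.6% of all genes, and a fall of that size for none, beside 1.63% of all genes. The 2 siAARS1 libraries lay on 1 side of both controls for 56 of the 65 (86.2%), again close to the 85.1% seen over all genes. Summed over the 65 genes, the level went from 2596 and 2586 CPM in the controls to 3007 and 2988 CPM with siAARS1. The changes ran from 2.47 for PUS7L to -0.32 for RPP21, so that the rises reached much farther than the falls.

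**Figure D1:**
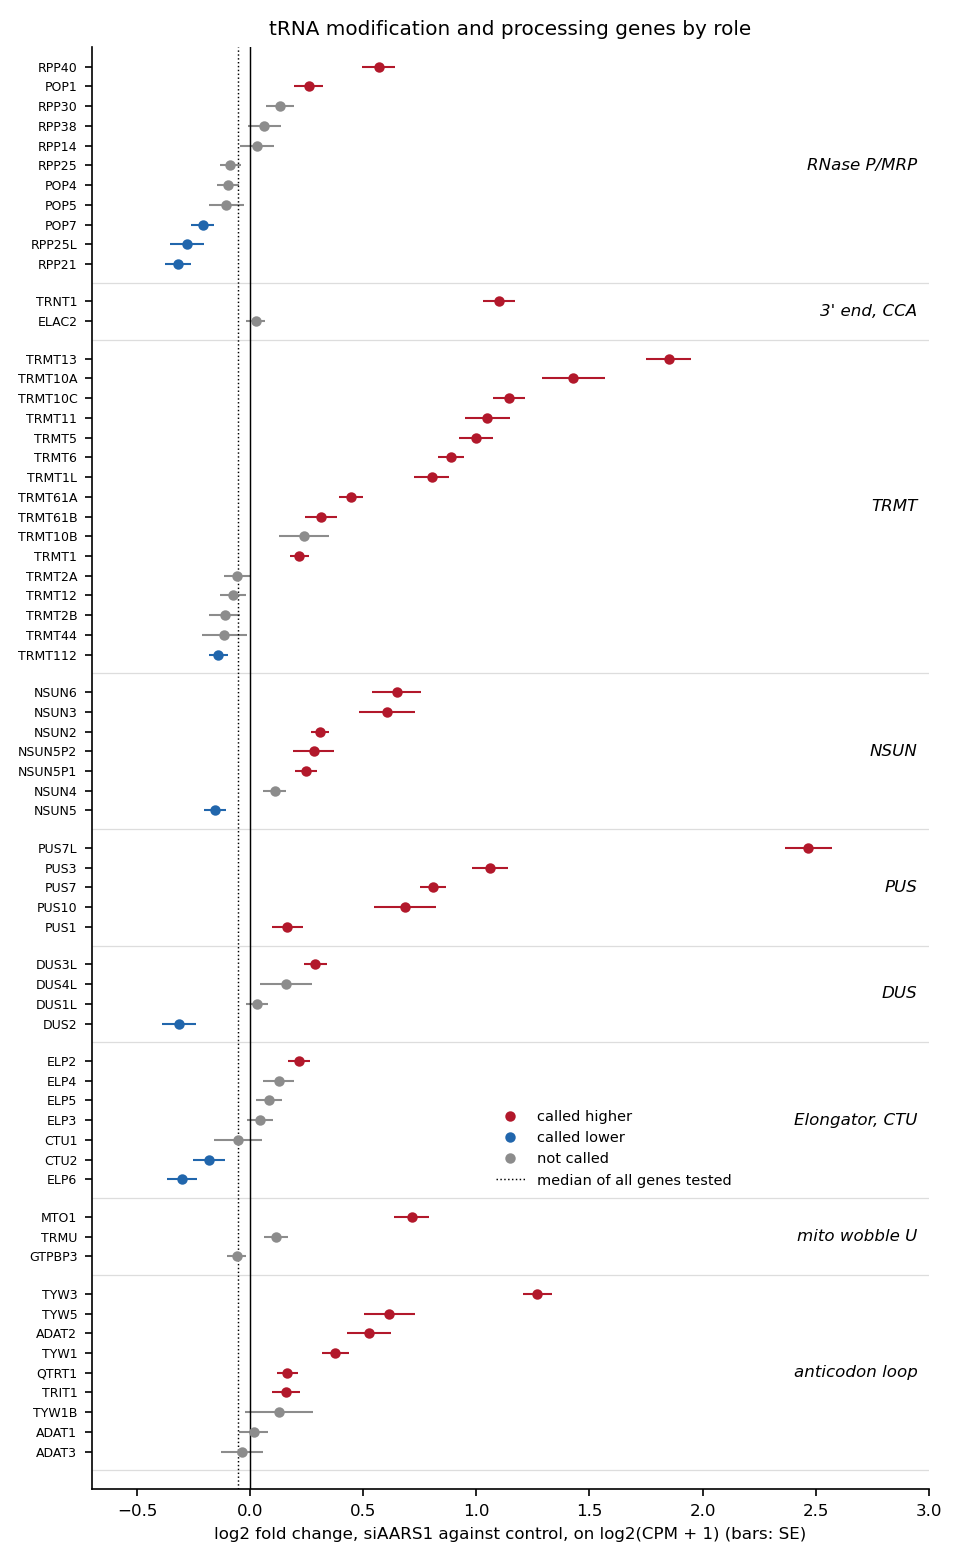
Log2 fold change of 64 of the 65 genes, siAARS1 against control on the log2(CPM + 1) scale, with its standard error as a bar (2 libraries a group) and genes grouped by role. Red marks genes called higher, blue those called lower and grey those not called, and the dotted line is the median of all genes tested. The 8 rises of at least 1 lie in the TRMT, PUS, 3′ end and anticodon loop groups, and no gene fell by more than 0.32.

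The genes at both ends of this range differed in the make-up of their transcripts, which is best seen in the sequences themselves. The middle 40 codons (120 bases) of the coding sequence are shown for the 3 largest rises, PUS7L (chr12:43718993-43758817, minus strand), TRMT13 (chr1:100133150-100150497, plus strand) and TRMT10A (chr4:99546709-99564032, minus strand), and then for 2 of the 3 largest falls, DUS2 (chr16:67987746-68079320, plus strand) and ELP6 (chr3:47495640-47513761, minus strand). Coordinates of the genes and the sequences are those of GENCODE v29 on GRCh38, written 5′ to 3′ on the coding strand, and capitals mark the codons for alanine, the amino acid that AARS1 handles.
PUS7L: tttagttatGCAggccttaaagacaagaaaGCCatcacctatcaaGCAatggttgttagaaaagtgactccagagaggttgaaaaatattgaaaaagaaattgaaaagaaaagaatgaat
TRMT13: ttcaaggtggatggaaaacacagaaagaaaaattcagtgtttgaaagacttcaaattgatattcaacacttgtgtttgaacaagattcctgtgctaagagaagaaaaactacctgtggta
TRMT10A: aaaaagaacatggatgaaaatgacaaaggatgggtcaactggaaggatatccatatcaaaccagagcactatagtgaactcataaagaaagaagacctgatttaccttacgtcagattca
DUS2: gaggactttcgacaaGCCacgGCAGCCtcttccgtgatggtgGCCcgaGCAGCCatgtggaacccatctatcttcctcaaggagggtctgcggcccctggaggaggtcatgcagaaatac
ELP6: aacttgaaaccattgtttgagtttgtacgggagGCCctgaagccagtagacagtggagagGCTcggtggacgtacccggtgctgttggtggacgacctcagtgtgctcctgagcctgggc
G and C made up 32.5%, 34.2% and 36.7% of the stretches from the 3 genes that rose most, and 59.2% and 57.5% of those from DUS2 and ELP6.

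Over the annotated transcripts, GC content was tied to the direction of change among the tRNA genes as it was in the whole table. The rank correlation of log2 fold change with transcript GC content was -0.70 across the 64 genes with an annotated transcript and -0.65 across 13819 genes of the table. Genes are not independent replicates, all share the same 4 libraries, and GC content goes with length and level, so these values only describe the libraries. Of the 26 tRNA genes under 45% GC, 22 rose (84.6%) and none fell, with a median log2 fold change of 0.70. Over all genes of that class 71.2% rose and 7.8% fell, with a median of 0.56. Of the 15 between 45% and 55%, 4 rose (26.7%) and 2 fell (13.3%), beside 20.7% and 42.5% of all genes of that class. Of the 23 over 55%, 7 rose (30.4%) and 6 fell (26.1%), whereas over all genes of that class 5.1% rose and 65.8% fell. The 7 GC-rich genes that rose were TRMT61A, DUS3L, NSUN5P2, NSUN5P1, TRMT1, PUS1 and QTRT1, by 0.16 to 0.45 on the log2 scale.

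**Figure D2:**
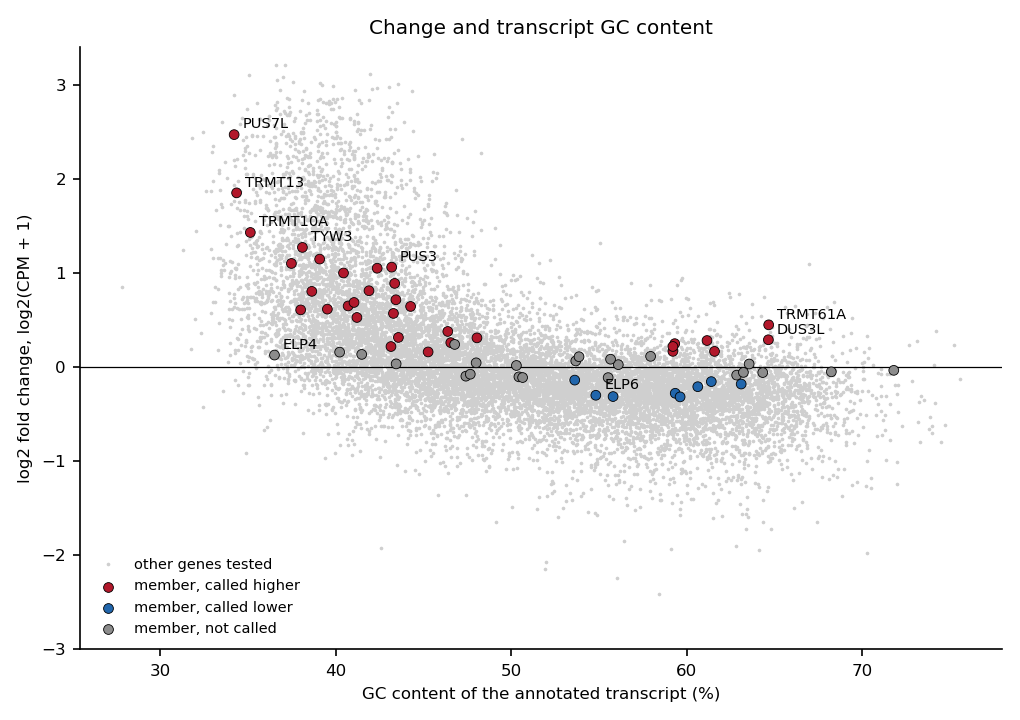
Log2 fold change (vertical axis, log2(CPM + 1) scale) against the GC content of the annotated transcript in percent, for 64 tRNA genes (large points; red called higher, blue called lower, grey not called) and the other genes tested (small grey points). The tRNA genes follow the slope of the whole table, from PUS7L at 34.2% GC and 2.47 down to genes near 0 above 50% GC, and TRMT61A and DUS3L stand near the upper edge at 64.7% and 64.6% GC.

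The smooth trend of each library on transcript GC content and length was therefore taken out in a second fit, which also removes any true change that follows these properties and which relies on 1 annotated transcript per gene. With that correction 36 of the 64 genes were higher and 8 lower, with a median of 0.22, and no rise of 1 was left. Over all 13819 genes in that fit, 3933 were higher and 5222 lower, with a median of -0.05, and 418 rose by at least 1. PUS7L kept the largest rise at 0.82, followed by PUS3 at 0.80, TRMT11 at 0.79, TRMT61A at 0.78 and TRMT13 at 0.76. Of the 41 calls made on the deposited values, 22 were kept in the same direction, all of them rises, and none of the 8 falls was kept. Others of the 41 were called in the opposite direction after the correction: ELP2, TYW5 and TRMT1L lower, NSUN5 and TRMT112 higher. Over all genes, 7115 of the 10032 calls were also called in the corrected fit, in either direction. Unlike the 22, that count does not require the same direction, so it cannot be set beside them. The largest fall of the corrected values was that of ELP4 at -1.43, a gene that was not called on the deposited values (0.13). The correction took its length from an annotated transcript of 8164 bases, and 28% of the exon sequence of the gene is shared with PAX6 on the other strand.

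**Figure D3:**
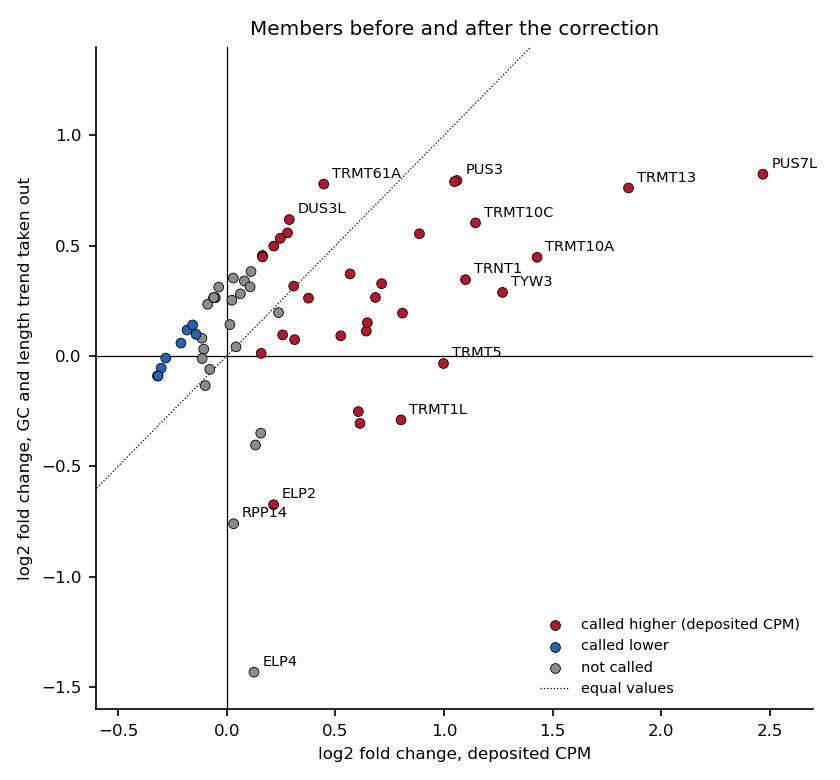
Log2 fold change of 64 tRNA genes on the deposited CPM (horizontal axis) and after the trend on transcript GC content and length was taken out (vertical axis), with colours for the calls on the deposited CPM. Genes on the dotted line have equal values: the large rises lie far below it, TRMT61A (0.45 and 0.78) and DUS3L (0.29 and 0.62) lie above it, and TRMT5, TRMT1L and ELP2 cross 0.

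RNase P and RNase MRP share most of their protein subunits, which are encoded by the POP and RPP genes. As a group of 11 these changed little on the deposited values. RPP40 and POP1 rose, POP7, RPP25L and RPP21 fell, 6 were not called, and the median was -0.09. RPP40 had 18.2 and 19.7 CPM in the controls and 29.2 and 27.9 CPM with siAARS1, a log2 fold change of 0.57 (SE 0.0731, adjusted p = 5.60e-07). RPP21 had 44.1 and 43.0 CPM in the controls and 35.0 and 34.5 CPM with siAARS1, a log2 fold change of -0.32 (SE 0.0577, adjusted p = 4.72e-05). The groups did not overlap for either gene. POP1, the largest of the protein subunits, rose by 0.26, and the small subunits POP7 and RPP25L fell by 0.21 and 0.28. With the GC correction none of the 3 falls was called, and neither was the rise of POP1. In that fit 6 of the 11 were called. RPP40 (0.37), RPP38 (0.28) and RPP25 (0.23) were higher, and RPP14 (-0.76), RPP30 (-0.40) and POP4 (-0.13) lower. The mitochondrial RNase P, a separate enzyme made of protein alone, is described with the methyltransferases below. Most of the exon sequence of RPP21 (69.2%) is also part of the readthrough gene TRIM39-RPP21, and RPP14 shares 20.7% of its exons with HTD2, so their reads may be split.

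At the other end of the molecule, TRNT1 was called and ELAC2 was not. TRNT1, the enzyme that adds the CCA tail, had 16.3 and 18.3 CPM in the controls and 37.8 and 38.4 CPM with siAARS1, a 2.21-fold higher mean (log2 fold change 1.10, SE 0.0719, adjusted p = 1.07e-11). Both siAARS1 libraries were above both controls by a wide margin. ELAC2, the endonuclease that removes the 3′ trailer, was far more abundant and was not called, with 175 and 168 CPM in the controls and 180 and 170 CPM with siAARS1 (log2 fold change 0.02, SE 0.0416, adjusted p = 0.626). After the GC correction the 2 values came closer, at 0.35 for TRNT1 and 0.25 for ELAC2.

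The TRMT genes formed the largest group and held 4 of the 8 rises of at least 1. Of the 16, 10 rose, TRMT112 fell and 5 were not called, with a median of 0.38. TRMT13, which methylates a ribose of the acceptor stem, had 6.28 and 5.23 CPM in the controls and 22.5 and 24.1 CPM with siAARS1, a mean 4.05-fold higher (log2 fold change 1.85, SE 0.0994, adjusted p = 3.40e-13). TRMT10A, a guanosine methyltransferase of cytosolic tRNA, had 1.64 and 1.48 CPM in the controls and 6.48 and 5.35 CPM with siAARS1 (log2 fold change 1.43, SE 0.140, adjusted p = 8.93e-09). It was the least abundant gene of the whole list in the controls. TRMT10C, its mitochondrial relative, had 15.6 and 16.4 CPM in the controls and 36.3 and 37.0 CPM with siAARS1 (log2 fold change 1.15, SE 0.0700, adjusted p = 3.27e-12). TRMT11, a guanosine methyltransferase, had 6.86 and 6.37 CPM in the controls and 15.0 and 14.5 CPM with siAARS1 (log2 fold change 1.05, SE 0.0990, adjusted p = 4.94e-09). For all 4 genes the groups were well apart, and in each pair of replicates the spread was small beside the difference. TRMT5, which methylates the guanosine 3′ of the anticodon, followed at 0.998, from 17.4 and 18.2 to 33.6 and 39.5 CPM, and its value after the GC correction was -0.03 (adjusted p = 0.65).

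Several of these enzymes work only with a partner, and partners could be compared side by side. TRMT6 and TRMT61A together form the methyltransferase for an adenosine of the T loop, and both rose, by 0.89 and 0.45. TRMT61B, the mitochondrial enzyme for the same position, rose by 0.31, a call that was lost under quantile normalization (0.09) and with the GC correction (0.07). TRMT112 is the small cofactor that TRMT11 and the wobble uridine methyltransferase ALKBH8 need for activity. It had 154 and 147 CPM in the controls and 141 and 132 CPM with siAARS1, a log2 fold change of -0.14 (SE 0.0438, adjusted p = 0.00712), while TRMT11 rose by 1.05 and ALKBH8 by 1.61. Per kilobase of annotated transcript, TRMT112 was the most abundant gene of the list, at 136 CPM per kilobase in the controls against 4.23 for TRMT11. The fall of TRMT112 was small: its value under median scaling was -0.09, no longer called, and with the GC correction it was 0.10. TRMT10C forms the mitochondrial RNase P with HSD17B10 and the nuclease subunit KIAA0391, and of these HSD17B10 fell by 0.18 and KIAA0391 was not called (0.09). With the GC correction HSD17B10 was called higher (0.10) and KIAA0391 lower (-0.47), while TRMT10C stayed higher (0.60). No test of the difference between partners was made.

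The remaining TRMT genes moved less. TRMT1L rose by 0.80 and TRMT1, the dimethylguanosine enzyme, by 0.22. TRMT10B (0.24), TRMT2A (-0.06), TRMT12 (-0.08), TRMT2B (-0.11) and TRMT44 (-0.11) were not called. The value of TRMT1L turned to -0.29 with the GC correction, whereas that of TRMT1 grew to 0.50.

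**Figure D4:**
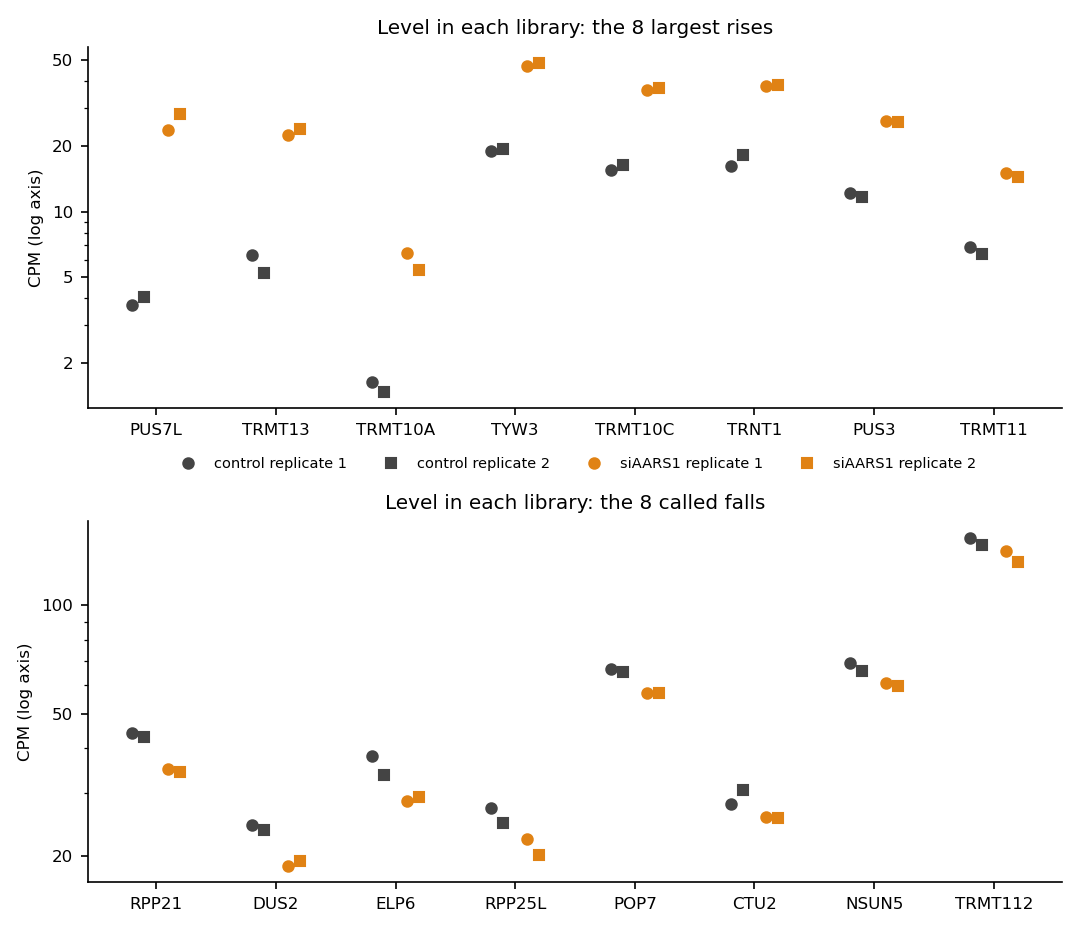
Level in CPM (log axis) in each of the 4 libraries, for the 8 called rises of at least 1 on the log2 scale (upper panel) and the 8 called falls (lower panel), with grey for control and orange for siAARS1, circles for replicate 1 and squares for replicate 2. The 2 orange points lie above both grey points for all 8 genes of the upper panel and below both for all 8 of the lower panel, by a much narrower margin.

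The NSUN genes encode methyltransferases that place 5-methylcytosine. NSUN6, which acts on the acceptor end of a few tRNAs, had 8.83 and 7.19 CPM in the controls and 12.14 and 14.02 CPM with siAARS1, a log2 fold change of 0.65 (SE 0.109, adjusted p = 2.06e-05). NSUN3, for mitochondrial methionine tRNA, rose by 0.61, and NSUN2, the main enzyme for cytosolic tRNA, rose by 0.31 from a far higher level, 149 and 154 to 190 and 186 CPM. NSUN2 was the steadier of these, since its value with the GC correction was 0.32, whereas NSUN6 came to 0.15 and NSUN3 to -0.25, neither of them called. NSUN4 was not called (0.11). NSUN5 had 69.1 and 65.8 CPM in the controls and 60.9 and 59.8 CPM with siAARS1 (log2 fold change -0.16, SE 0.0498, adjusted p = 0.00814), and its pseudogenes NSUN5P1 and NSUN5P2 rose by 0.25 and 0.28. The 3 are near-identical copies among which reads can be split, and NSUN5P2 lies for 71.8% of its exons opposite POM121, so their opposite directions are uncertain. The call of NSUN5 was also lost under median scaling (-0.11), and its value was 0.14 with the GC correction. Summed, the 3 had 146 and 140 CPM in the controls and 150 and 152 CPM with siAARS1.

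All 5 pseudouridine synthases of the PUS family rose, with a median of 0.81, although PUS1 was no longer called under quantile normalization (-0.00549), and PUS7L held the largest change of the list. It had 3.70 and 4.03 CPM in the controls and 23.8 and 28.2 CPM with siAARS1, a mean of 3.86 ± 0.240 against 26.0 ± 3.06 CPM (SD, n = 2), 6.73-fold higher (log2 fold change 2.47, SE 0.104, adjusted p = 4.54e-15). Per kilobase of its long annotated transcript this was 0.284 CPM in the controls, the lowest of the list, and 1.91 with siAARS1. PUS3, which acts in the anticodon stem, had 12.2 and 11.7 CPM in the controls and 26.1 and 25.7 CPM with siAARS1 (log2 fold change 1.06, SE 0.0792, adjusted p = 1.01e-10). PUS7, the closest relative of PUS7L, rose by 0.81, PUS10 by 0.68 and PUS1 by 0.16. The 5 therefore shared a direction and spanned a wide range of sizes. With the GC correction all 5 stayed positive, and PUS10 (0.27) was no longer called. Over all genes tested 32.6% were called higher, and 71.2% in the class under 45% GC, which holds all of the 5 but PUS1. The rise was not one of all pseudouridine synthases. Of 7 others that the naming rule does not reach, 1 rose, 2 fell and 4 were not called, with a median of 0.03.

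Dihydrouridine synthases were mixed. DUS3L had 79.2 and 82.6 CPM in the controls and 104 and 94.1 CPM with siAARS1 (log2 fold change 0.29, SE 0.0504, adjusted p = 3.19e-05). DUS2 had 24.5 and 23.6 CPM in the controls and 18.8 and 19.5 CPM with siAARS1 (log2 fold change -0.32, SE 0.0734, adjusted p = 6.72e-04). DUS1L (0.03) and DUS4L (0.16) were not called. With the GC correction DUS3L was at 0.62 and DUS2 was no longer called (-0.09). DUS2 shares 17.1% of its exon sequence with DDX28 on the other strand, and whether the counting used strand is not stated.

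The Elongator complex and the CTU pair build the side chain and the sulfur of wobble uridine in cytosolic tRNA. Their genes did not move together. ELP2, a scaffold subunit, had 53.6 and 53.3 CPM in the controls and 61.8 and 62.8 CPM with siAARS1, a log2 fold change of 0.22 (SE 0.0502, adjusted p = 6.73e-04). ELP6, of the accessory ring, had 38.0 and 33.8 CPM in the controls and 28.5 and 29.2 CPM with siAARS1, a log2 fold change of -0.30 (SE 0.0671, adjusted p = 4.32e-04). Thus ELP2 was called higher and ELP6 lower. ELP3, the catalytic subunit, was not called at 0.04, nor were the other ring subunits ELP4 (0.13) and ELP5 (0.08). Both siAARS1 libraries lay above both controls for ELP3, ELP4 and ELP5, as for ELP2 and for 5463 of all 14199 genes tested. Under quantile normalization ELP3 was called lower (-0.13), and ELP4 (-0.0822) and ELP5 (-0.0815) were negative and not called. CTU2 fell by 0.18 and its partner CTU1, at 8.65 to 10.3 CPM, was not called (-0.05). With the GC correction ELP6 (-0.06) and CTU2 (0.12) were no longer called, and ELP2, whose annotated transcript has 8459 bases, was at -0.67. In that fit ELP4 was called lower (-1.43) and ELP5 higher (0.34), and ELP3 was not called (0.04). In mitochondria the same base is modified by MTO1 with GTPBP3 and thiolated by TRMU. MTO1 had 13.6 CPM in both controls and 23.4 and 22.5 CPM with siAARS1 (log2 fold change 0.71, SE 0.0790, adjusted p = 6.06e-08), and its partner GTPBP3 (-0.06) and TRMU (0.11) were not called. With the GC correction GTPBP3 was at 0.26 and MTO1 at 0.33, both called.

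Alanine tRNA itself is edited in the anticodon loop. ADAT1 converts the adenosine beside the anticodon of alanine tRNA to inosine, and ADAT2 and ADAT3 form the deaminase that makes inosine at the wobble position of alanine and several other tRNAs. ADAT1 had 28.7 and 29.9 CPM in the controls and 30.2 and 29.1 CPM with siAARS1, a difference within the spread between replicates (log2 fold change 0.01, SE 0.0650, adjusted p = 0.851). ADAT2 had 8.12 and 7.85 CPM in the controls and 11.6 and 12.3 CPM with siAARS1 (log2 fold change 0.52, SE 0.0992, adjusted p = 7.80e-05). ADAT3 had 16.8 and 17.6 CPM in the controls and 18.7 and 14.9 CPM with siAARS1, so that its groups overlapped (log2 fold change -0.04, SE 0.0938, adjusted p = 0.738). On the deposited values the catalytic partner thus rose, and no change was detectable in the other partner at this spread. ADAT2 was no longer called with the GC correction (0.09, adjusted p = 0.39). In that fit ADAT3 (0.31, adjusted p = 0.00572) and ADAT1 (0.14, adjusted p = 0.0383) were called higher, so the contrast between the partners depends on the fit.

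The other genes of the anticodon loop mostly rose. TYW3, a methyltransferase of wybutosine synthesis, had 19.0 and 19.4 CPM in the controls and 47.0 and 48.2 CPM with siAARS1, a mean 2.48-fold higher (log2 fold change 1.27, SE 0.0635, adjusted p = 9.83e-14). Its value with the GC correction was 0.29, still called. TYW5, the hydroxylase that acts late in the pathway, rose by 0.61 and TYW1, which makes the tricyclic core, by 0.38. TYW1B, a near copy of TYW1 that may share its reads, had 2.20 and 2.71 CPM in the controls and 2.43 and 3.13 CPM with siAARS1 and was not called. TYW5 turned to -0.31 with the GC correction. QTRT1, the catalytic subunit of the enzyme that inserts queuine, rose by 0.16 from 104 and 97.6 CPM in the controls, and its partner subunit QTRTD1 rose by 0.55. TRIT1, which adds the isopentenyl group to the adenosine beside the anticodon, rose by 0.16 and had a value of 0.01 with the GC correction and -0.0260 under quantile normalization.

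Genes of the same pathways that the naming rule does not reach were counted from a separate list. Of 59 listed, 25 rose, 10 fell and 24 were not called, with a median of 0.09. The shares were 42.4% higher and 16.9% lower, beside 32.6% and 38% of all genes tested. With the GC correction 20 were called higher and 24 lower, with a median of 0.05. More genes were also lower than higher in that fit over all 13819 genes, with 3933 higher and 5222 lower and a median of -0.05. The largest rises were those of THUMPD1, DDX1 and ALKBH8. THUMPD1, the adaptor of the tRNA acetyltransferase NAT10, had 11.3 and 11.7 CPM in the controls and 48.5 and 51.0 CPM with siAARS1 (log2 fold change 2.02, SE 0.0706, adjusted p = 1.78e-16), whereas NAT10 itself rose by 0.20. ALKBH8 had 3.34 and 3.88 CPM in the controls and 12.5 and 13.6 CPM with siAARS1 (log2 fold change 1.61). DDX1, a helicase of the tRNA ligase complex, had 64.1 and 64.3 CPM in the controls and 184 and 191 CPM with siAARS1 (log2 fold change 1.53), while RTCB, the ligase, was not called (0.00). The largest falls were those of TRPT1 (-0.97), a phosphotransferase of spliced tRNA, RPUSD3 (-0.48), a mitochondrial pseudouridine synthase, and TSEN34 (-0.33), a subunit of the splicing endonuclease. TRPT1 had 21.3 and 22.4 CPM in the controls and 11.6 and 9.81 CPM with siAARS1.

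Length, level and alanine content also went with the change. The rank correlation of log2 fold change with transcript length was 0.40 across the 64 genes and 0.30 across all, and -0.20 and -0.02 after the GC correction. With coding length it was 0.29 across the 62 genes with a coding sequence and 0.25 across all, and 0.19 and 0.29 after the correction. The rank correlation of log2 fold change with control CPM was -0.49 across the 64 genes and -0.15 across all. It was 0.00 and -0.02 after the GC correction. The same control values enter the fold change and the level, so a negative value is partly built in. Alanine made up 3.24% of the codons of TRMT10A, the lowest of the list, and 17.5% of those of CTU1, the highest. The rank correlation of log2 fold change with the alanine share was -0.55 across the same 62 genes and -0.34 across 12272 genes. All alanine codons begin with G and C, so this share is tied to GC content, and after the GC correction the values were -0.14 and -0.06. These are descriptions across genes that share libraries and base composition.

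Of the 65 genes, 22 lie head to head with another listed gene whose start is within 1000 bases on the opposite strand. Among these 22 pairs, both genes were called in 15 (68.2%), with 13 of the 15 (86.7%) in the same direction. Over all 1397 such pairs of listed genes, both were called in 45.2%, and 72.6% of those went in the same direction. The difference was not tested. TRMT13 (1.85) faces SASS6, which rose by 2.46 from 3.75 and 4.89 to 25.9 and 30.4 CPM, and TRMT6 (0.89) faces MCM8, which rose by 1.82. PUS7L (2.47) faces IRAK4, which rose by 0.20. The 2 pairs in opposite directions were NSUN2 with SRD5A1, which fell by 0.37, and TRMT1 with NACC1, which fell by 0.24. Such neighbours have similar GC content, and the first exons of some overlap, as TYW3 and CRYZ do over 257 bases, so without strand their reads cannot be told apart.

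The study asked about targets of YAP and TEAD, and the promoters were therefore searched for the TEAD motif CATTCC on both strands. RefSeq windows from 250 bases before to 50 after the start were at hand for 52 of the 65 genes (GRCh38.p14). The motif was in a window of 7 of them (13.5%), beside 4567 of 27305 genes with such a window (16.7%). Of the 7, ADAT2 and TRMT61B rose, ELP6 and TRMT112 fell, and ELP5, GTPBP3 and POP4 were not called. The matches in the genes that were called are shown with 12 bases on each side, 5′ to 3′ on the strand of the gene, with the motif or its reverse complement in capitals, and for ELP6 the nearest to a start of several.
ADAT2: tttcatctccacCATTCCacctaaattgcc
TRMT61B: attctttacccaCATTCCgaaaaggaaaac
ELP6: gcacgaccccggGGAATGgcgcgacgaccc
TRMT112: aatttgcatataGGAATGaggtgcggctcg
They lie at chr6:143442852-143442881, chr2:28870515-28870544, chr3:47513434-47513463 and chr11:64317949-64317978, all in genes of the minus strand, and the motif begins 192, 223 and 106 bases before the start in the first 3 and 24 bases after it in TRMT112. The starts are those of RefSeq transcripts. The ADAT2 and ELP6 matches lie inside the genes as annotated in GENCODE v29, whose 5′ ends are at chr6:143450673 and chr3:47513761. Their starts here are thus alternative ones. A match of so short a motif describes the sequence and is no evidence of binding. The matched genes went in both directions.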

How the data were processed

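RNA-seq of 4 libraries was used (2 control, 2 siAARS1), grouped by the sample titles. The authors deposited CPM values for 14431 genes, each above 1 CPM in at least 1 library. The submitters' processing notes name RSEM 1.3.3 and the build hg38, without their roles. The use of strand and the annotation are not given in the sources used here. All deposited values (100%) were whole multiples of 1 read, and these recovered reads served the count tests. Depth was 30653210 to 33522573 reads. Between the 2 libraries of a group these counts varied beyond counting error. The mean chi-square per gene was 3.62 in the controls and 3.60 with siAARS1, where counting error alone gives about 1.

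Genes averaging 1 CPM or more in either group were tested with limma 3.58.1 (R 4.3.3, two-sided, with a trend) on log2(CPM + 1), which understates changes of low genes. Adjusted p-values are Benjamini-Hochberg over all 14199 genes, with a threshold of 0.05. Length, GC content and codons came from 1 principal transcript per gene in GENCODE v29 (GRCh38), matched by identifier for 64 of the 65 genes. The fit was tested on simulated data in which few genes changed and no GC trend was set. That setting is unlike these data, so it checked the code only. The alternatives were edgeR 4.0.16, DESeq2 1.42.0, other scalings, pseudocount, filter and threshold, a replicate block, a correction for GC content and length (mgcv 1.9.3), and leaving out each library.

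Genes given by library were AARS1, those called with a change of at least 1 and groups apart, the largest called rise and fall of each role group, and ADAT1, ADAT2 and ADAT3, plus up to 3 rises and 3 falls from other tRNA genes. ELAC2, TRMT5, NSUN2, ELP2, TYW1B and the neighbouring genes were added after their values were seen. The genes, lists and tests were chosen with earlier results of these data known. Some genes and sequences that this rule covers or that enter the counts are not reported here.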

Additional observations from a re-analysis of the deposited data

How the results depend on the processing

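Over the alternatives, 36 to 48 of the 65 genes were called and 8355 to 10760 of all genes, beside 41 and 10032. The calls and directions of 19 of the 41 genes held in every alternative, all of them rises, including the 8 of at least 1, whose values ranged from 0.29 to 2.80. Without the GC correction 30 held, 26 higher and 4 lower (DUS2, ELP6, POP7 and RPP21). With the replicate block 45 genes (37 higher) and 10389 of all genes were called and no call of the 41 was lost, and the replicates share only a number (correlation of same-numbered deviations 0.118). edgeR called 45, DESeq2 39 and median scaling 43. Quantile normalization moved the median of all genes from -0.05 to -0.15 and called 27 higher and 21 lower (56.2% higher, beside 80.5%). Under it ELP4 (-0.0822), ELP5 (-0.0815), ELP3 (-0.13), RPP30 (-0.0598), RPP38 (-0.16), RPP14 (-0.20), TRIT1 (-0.0260), ADAT1 (-0.18), DUS1L (-0.00166), TRMU (-0.0158) and PUS1 (-0.00549) changed sign.

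The GC correction, with or without the replicate block, kept 22 of the 41 calls and changed the sign of 20 genes. Those that turned negative were ELP2 (-0.67), ELP4 (-1.43), RPP30 (-0.40), RPP14 (-0.76), TYW5 (-0.31), NSUN3 (-0.25), DUS4L (-0.35), TRMT5 (-0.0343) and TRMT1L (-0.29). Those that turned positive were CTU1 (0.26), CTU2 (0.12), RPP25 (0.23), POP5 (0.0309), POP7 (0.0582), ADAT3 (0.31), NSUN5 (0.14), GTPBP3 (0.26), TRMT2A (0.26), TRMT44 (0.0805) and TRMT112 (0.10). ADAT3, not called on the deposited values but called with the GC correction, was at 0.00526 under edgeR, 0.0109 under median scaling and 0.0202 under DESeq2. Leaving out 1 library called 36 to 41 genes, and 8 uncalled genes changed sign, with ranges of -0.0190 to 0.0660 for ELAC2, -0.17 to 0.0593 for CTU1, -0.0135 to 0.0768 for RPP14, -0.00715 to 0.26 for TYW1B, -0.0140 to 0.0432 for ADAT1, -0.19 to 0.12 for ADAT3, -0.0199 to 0.0807 for DUS1L and -0.15 to 0.0299 for TRMT2A. The cause of these changes was not tested.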
